A study of Mus musculus with 6 samples.

Results

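The semaphorins, plexins, ephrins, Eph receptors, Slits, Robos, netrins and Unc5 receptors were compared between cells that bound a lot and cells that bound little of a secreted protein. The genes were chosen by name: every transcript cluster (the probe set that an Affymetrix gene array has for a gene) annotated to exactly 1 symbol made of Sema, Plxn, Epha, Ephb, Efna, Efnb, Slit, Robo, Ntn or Unc5 and a further number or letter, without the Slitrk genes. This gave 68 genes on 74 clusters, out of 19938 genes and 35556 clusters in the whole table. The rule itself uses names and no measured value, but it was chosen with earlier results of these data known. Where a gene had several clusters, the one with the highest mean over the 6 arrays was used. By family there were 20 semaphorins, 9 plexins, 9 EphA and 4 EphB receptors, 5 ephrin-A and 3 ephrin-B genes, 3 Slits, 4 Robos, 5 netrin names and 6 Unc5 names. The names Unc50 and Unc5cl match the wording without being netrin receptors, and without them 66 genes and the same calls remained.

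Both groups came from 1 line of immortalized preadipocytes, grown from the stromal vascular fraction (SVF, the cells of fat tissue that are not mature adipocytes) of inguinal white fat of male 129SVE mice. The cells were incubated with FcsFNDC4, the secreted part of FNDC4 fused to an antibody Fc tail, and sorted by the fluorescence of the bound protein into high-binding cells (HBC) and low-binding cells (LBC). Binding, sorting and expansion were repeated up to passage 20, and the sorted cells were then expanded once more and lysed for RNA. Gene expression was measured in 3 HBC and 3 LBC arrays, labelled as technical replicates of 1 sorted population each, so the p-values below measure technical spread and not the spread between independent sorts. For LBC replicates 2 and 3 the source name gives HBC, whereas title, description and phenotype give LBC, and they were grouped as LBC.

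Axon guidance cues are proteins that steer growing nerve fibres, and the same genes are used by many other cells to move, to sort into compartments and to shape vessels. Semaphorins signal through plexins, often with a neuropilin as co-receptor. Ephrins are membrane-bound ligands of the Eph receptor tyrosine kinases, Slits bind Robo receptors, and netrins bind Dcc, neogenin and the Unc5 receptors. In the adipose tissue of mice, Sema3e with its receptor plexin D1 and netrin-1 are known for their roles in the gathering of macrophages in obesity, and a fragment of Slit2 is known as a secreted product of fat cells that acts on heat production.

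A gene was called changed when its adjusted p in limma was under 0.05 and its fold exceeded 1.5 on the scale of log2(intensity + 16). Differences are given on that scale as HBC minus LBC, whereas intensities and ratios are linear values as deposited. Of the 68 genes, 3 were called higher in HBC (4.41%, against 2.54% of all 19938 genes) and 4 were called lower (5.88%, against 1.13% of all genes), while 61 were not called. Epha3, Sema3e and Sema6d rose, and Slit2, Efnb2, Efna5 and Epha2 fell. The split between rises and falls depends on the scaling between arrays: it was 3 and 4 as deposited, 5 and 2 with cyclic loess, 4 and 3 with quantile normalization, and 5 and 3 with median centring. Only Epha3, Sema3e, Sema6d, Slit2 and Efnb2 were called in the same direction under all 4 scalings.

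The 61 genes that were not called had differences between -0.46 and 0.57. The median difference of the 68 genes was -0.04 and that of all genes -0.07. All 3 HBC arrays lay above all 3 LBC arrays for 10 genes (14.7%, against 10.1% of all genes), the reverse held for 16 genes (23.5%, against 25.1%), and the groups overlapped for 42. At any fold, 17 genes had an adjusted p under 0.05 (25%, against 18.3% of all genes), 10 of them higher and 7 lower in HBC, while over all genes 1381 were higher and 2274 lower. As a reference for dim signal, 1027 olfactory receptor genes were used, whose middle range (10th to 90th percentile) ran from 13.8 to 85.0 in intensity. Group means lay above that range in both groups for 52 axon guidance genes, within it in both for 11, and within it in 1 group for 5.

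**Figure D1:**
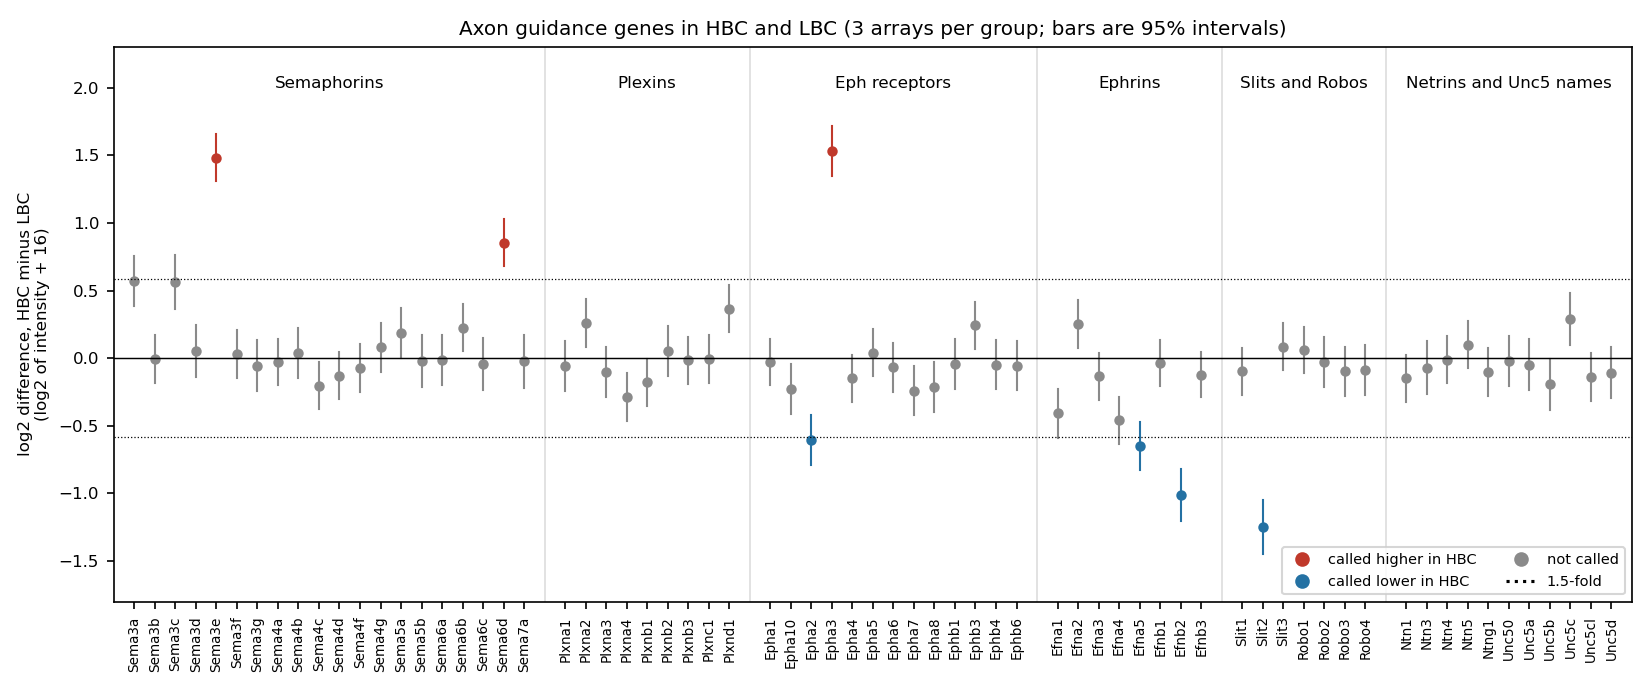
Difference between HBC and LBC for each of the 68 genes, in log2 units of (intensity + 16), with 95% intervals from limma (3 arrays per group) and dotted lines at 1.5-fold. Epha3 at 1.53 (dim in LBC, so not of settled size) and Sema3e at 1.48 lie at the top, Slit2 at -1.25 and Efnb2 at -1.01 lowest, and most of the other genes lie close to 0.

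The regulatory sequence in front of the 4 genes whose difference exceeded 1 in size is shown so that the genes with the largest fitted rise and fall can be set side by side. Each is the 300-base window from 250 bases before to 50 bases after the start site in RefSeq (GRCm38.p6), written 5′ to 3′ on the strand of the gene, with searched motifs in capitals. The motifs, read on both strands, were the GC box GGGCGG, the E-box CACGTG, the TATA box TATAAA and the interferon response element (GAAA, any 2 bases, then GAAA). The Epha3 window lies at chr16:63864126-63864425 (minus strand), that of Sema3e at chr5:14025026-14025325 (plus strand), that of Slit2 at chr5:47982905-47983204 (plus strand) and that of Efnb2 at chr8:8661193-8661492 (minus strand).
Epha3: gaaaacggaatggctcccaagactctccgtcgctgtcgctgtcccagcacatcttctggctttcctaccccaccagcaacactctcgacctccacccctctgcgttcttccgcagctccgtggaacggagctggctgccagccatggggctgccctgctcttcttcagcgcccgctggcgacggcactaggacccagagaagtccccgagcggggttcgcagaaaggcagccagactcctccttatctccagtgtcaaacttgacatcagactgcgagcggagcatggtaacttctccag
Sema3e: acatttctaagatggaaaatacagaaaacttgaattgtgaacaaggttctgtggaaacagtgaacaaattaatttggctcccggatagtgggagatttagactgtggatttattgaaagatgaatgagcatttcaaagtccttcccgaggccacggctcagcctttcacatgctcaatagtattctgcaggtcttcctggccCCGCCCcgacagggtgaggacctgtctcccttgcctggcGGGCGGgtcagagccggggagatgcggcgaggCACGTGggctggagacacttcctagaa
Slit2: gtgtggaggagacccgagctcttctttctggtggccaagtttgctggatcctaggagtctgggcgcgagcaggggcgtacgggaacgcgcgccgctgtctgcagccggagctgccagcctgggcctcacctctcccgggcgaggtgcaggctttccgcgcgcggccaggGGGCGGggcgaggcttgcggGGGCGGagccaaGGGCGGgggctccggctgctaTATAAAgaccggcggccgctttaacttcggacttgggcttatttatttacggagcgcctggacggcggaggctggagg
Efnb2: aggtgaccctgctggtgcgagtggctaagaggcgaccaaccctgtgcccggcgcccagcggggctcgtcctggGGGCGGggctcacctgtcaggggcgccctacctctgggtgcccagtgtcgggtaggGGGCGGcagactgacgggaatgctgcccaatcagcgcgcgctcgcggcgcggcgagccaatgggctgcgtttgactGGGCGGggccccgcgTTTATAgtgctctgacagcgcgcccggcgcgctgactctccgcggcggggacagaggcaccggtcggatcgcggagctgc

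The windows held 30 CpG dinucleotides in Slit2, 35 in Efnb2, 18 in Epha3 and 11 in Sema3e. Of the other genes that fell, Efna5 had 38 and Epha2 had 10, and the windows of Sema6d, which rose, had 14 and 6, so the number did not separate rises from falls. Both Slit2 and Efnb2 held 3 GC boxes and 1 TATA box, Sema3e held 2 GC boxes and 1 E-box, and Epha3 held none of the motifs. RefSeq gave 75 such windows for 59 of the 68 genes. A GC box stood in 72% of these windows and in 35.7% of all 32851 windows of the table, and their median number of CpG was 19 beside 7. An E-box stood in 6.67% (7.15% of all windows), among them the window of Sema3e and the Sema6d window with 14 CpG, but not the Sema6d window with 6. The interferon response element stood in 2.67% (3.44% of all), in no window of a called gene, and the TATA box in 2.67% (13.6% of all), which were the windows of Slit2 and Efnb2. These are matches of letters in a short window and say nothing about whether a factor binds there.

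Among the semaphorins, 2 of 20 rose in HBC, none fell, and 18 were not called. Sema3e, a secreted class 3 semaphorin that binds plexin D1 directly, read 291, 295 and 278 on the HBC arrays and 90.1, 88.3 and 100.5 on the LBC arrays. Every HBC array was well above every LBC array, and the spread within a group was small. The HBC mean was 288 ± 8.74 (SD, n = 3) and the LBC mean 93.0 ± 6.59 (SD, n = 3), which gave a ratio of 3.10 and a difference of 1.48 ± 0.085 (SE, limma, adjusted p = 1.1e-14). The LBC values lay only a little above the range of dim signal, which ended at 85.0. The size therefore depends on the added value, with a difference of 1.62 when 1 was added and 1.24 when 50 was added. Sema6d, a transmembrane class 6 semaphorin that signals through plexin A1, read 199.6, 198 and 212 in HBC and 103, 102 and 111 in LBC. Again the groups were far apart, with a ratio of 1.93 and a difference of 0.85 ± 0.084 (SE, limma, adjusted p = 3.0e-09).

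A pair of further class 3 semaphorins had higher values in HBC without reaching the 1.5-fold limit on the log2(intensity + 16) scale. Sema3a, the ligand that collapses nerve growth cones through neuropilin 1 and class A plexins, read 1236, 1334 and 1124 in HBC and 763, 816 and 897 in LBC. Its difference was 0.57 ± 0.090 (SE, limma, adjusted p = 1.8e-05), with a 95% interval from 0.38 to 0.75 that holds the limit, and the ratio of the linear means was 1.49. Sema3c, a ligand of both neuropilins known from the developing heart outflow tract, read 249.7, 245 and 198 in HBC and 135, 144 and 175 in LBC. The difference was 0.56 ± 0.098 (SE, limma, adjusted p = 6.9e-05), and the ratio of the linear means was 1.53, above 1.5 when no 16 is added. HBC replicate 3 and LBC replicate 3 were the arrays nearest to the other group for both genes. Leaving out HBC replicate 3 gave a called difference of 0.63 for Sema3a and 0.66 for Sema3c, leaving out LBC replicate 3 gave the same rounded values, and the methods' t-test gave adjusted p = 0.055 and 0.11.

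The other class 3 genes did not share the pattern. Sema3b, Sema3d, Sema3f and Sema3g had differences of -0.003, 0.05, 0.03 and -0.06 with overlapping groups, and Sema3d was within the range of dim signal in both. Of the 6 semaphorins of class 4, from Sema4a to Sema4g, Sema4c was the one whose groups separated, with 334, 337 and 327 in HBC and 365, 385 and 407 in LBC (difference -0.20, limma, adjusted p = 0.096, not called). Sema6b, another class 6 gene, had 242, 239 and 238 in HBC and 204, 210.2 and 194 in LBC (difference 0.23, adjusted p = 0.057, not called), and its 2 clusters carried identical values. Sema5a read 861 and 757 as group means and Sema7a, the membrane-anchored semaphorin that engages integrins and plexin C1, read 1367 and 1398, both with overlapping groups.

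Sema3d, Sema3a, Sema3e and Sema3c lie on chromosome 5, where RefSeq places them in that order among other genes. The class 3 run was therefore read together with the tested genes in between and with 3 on each side. Between them stood Speer3, Pclo, Cacna2d1 and Hgf, of which Speer3 had LBC above HBC on every array (difference -0.38, adjusted p = 0.0017, not called) and the others had overlapping groups. The flanking genes Dmtf1, Elapor2 and Grm3 on one side and Cd36, Gnat3 and Gnai1 on the other had differences between -0.20 and -0.01. LBC lay above HBC on every array for Dmtf1, Elapor2 and Grm3, whereas the groups of Cd36, Gnat3 and Gnai1 overlapped. Sema3e was the 1 gene of these 14 that was called. Values above those of LBC on every HBC array were seen at Sema3a, Sema3e and Sema3c and at no other tested gene of the run. RefSeq lists 22 protein-coding genes from Sema3d to Sema3c, both included, and those that were not tested have no value here.

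**Figure D2:**
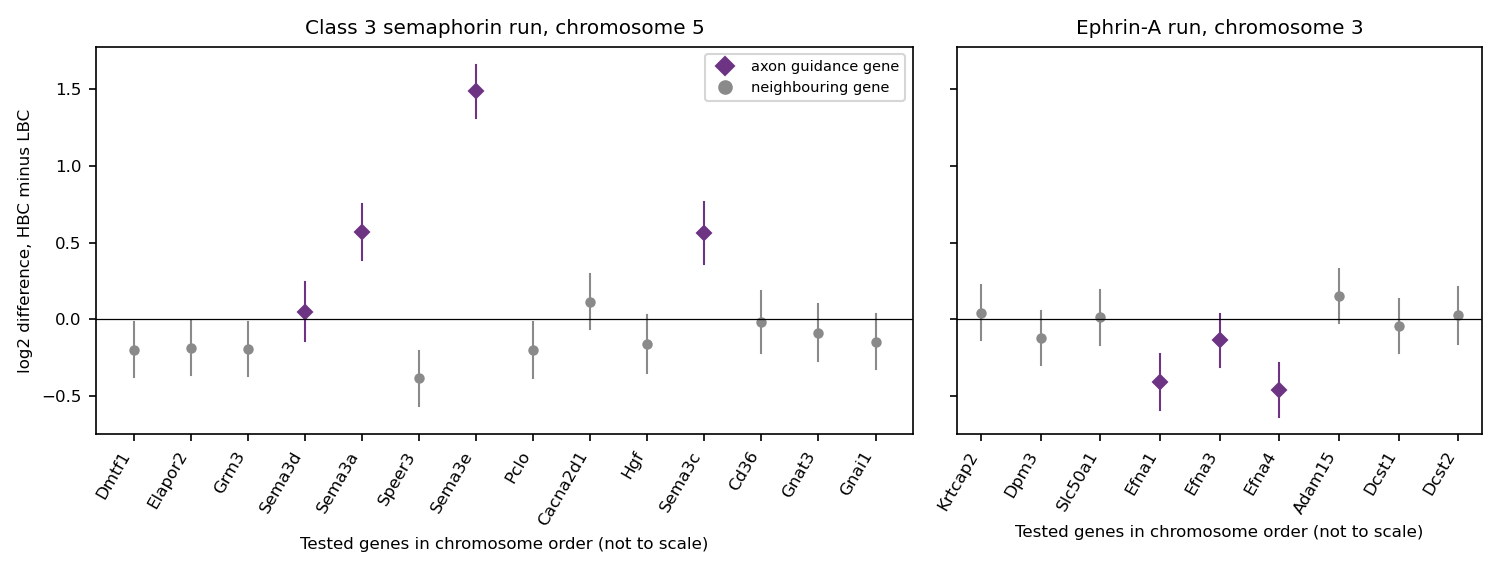
Differences between HBC and LBC (log2 units, 95% intervals) for the tested genes along the class 3 semaphorin run on chromosome 5 and the ephrin-A run on chromosome 3, in chromosome order and not to scale. Axon guidance genes are drawn as diamonds; Sema3e at 1.48 stands apart on the left, and on the right Efna1 at -0.41 and Efna4 at -0.46 lie below their neighbours.

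None of the 9 plexins, the receptors of the semaphorins, was called. The receptor of Sema3e, Plxnd1, read 475, 483 and 469.5 in HBC and 346, 363 and 390.4 in LBC, so that its groups did not overlap. The difference of 0.36 (95% interval 0.19 to 0.54, limma, adjusted p = 0.0021) stayed below the fold limit. Plxna2 had a difference of 0.26 (adjusted p = 0.034) and Plxna4, with LBC above HBC, one of -0.29 (adjusted p = 0.018). Plxnb2, a receptor of class 4 semaphorins, read 2239 in HBC and 2163 in LBC with overlapping groups (difference 0.05), and Plxna1, the receptor named for Sema6d, read 1274 and 1332. The neuropilin gene Nrp1 read 2090 and 2074 (difference 0.02, overlapping). Nrp2 read 328 and 391, with LBC above HBC (difference -0.24, adjusted p = 0.052, not called).

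Of the 9 EphA receptors 1 rose and 1 fell. Epha3, a receptor tyrosine kinase that binds ephrin-A ligands with preference for ephrin-A5, read 206, 224 and 176 in HBC and 57.5, 62.3 and 57.9 in LBC. The LBC values lay within the range of the olfactory receptor genes, so in LBC the gene gave dim signal, whereas all 3 HBC arrays were above that range. The geometric mean of HBC was 2.37 times the upper end of the range, 85.0. That end comes from other genes, so this ratio sets no lower limit on the fold between the groups. The fitted difference was 1.53 ± 0.091 (SE, limma, adjusted p = 2.4e-14) and ran from 1.46 to 1.62 when each array was left out in turn, but with LBC in the dim range its exact size, and its order beside Sema3e, is not settled. Epha2, an Eph receptor of epithelial and vessel cells that binds ephrin-A1, moved the other way, with 391, 394 and 369 in HBC and 546, 562 and 680.1 in LBC. The groups were separate, yet the difference of -0.61 ± 0.091 (SE, limma, adjusted p = 7.1e-06) was close to the fold limit. It was no longer called without LBC replicate 3 (-0.51), without HBC replicate 3 (-0.58), after any of the other 3 scalings (-0.58, -0.53 and -0.56), with 50 added in place of 16 (-0.57) or by the methods' t-test (adjusted p = 0.053).

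The remaining 7 EphA genes had differences from -0.24 (Epha7) to 0.04 (Epha5), and none had an adjusted p under 0.05. Epha7, a receptor with roles in the patterning of nerve maps, read 286 in HBC and 341 in LBC with LBC above HBC on every array (adjusted p = 0.058). Epha5, Epha6 and Epha8 were within the range of dim signal in both groups. No EphB receptor was called. Ephb3 had values of 312, 328 and 299.7 in HBC and 254, 259 and 274 in LBC (difference 0.24, adjusted p = 0.043), while Ephb1, Ephb4 and Ephb6 had overlapping groups. Ephb4, the receptor of ephrin-B2 on vein cells, read 444 and 459. Ephb2 was not analysed here.

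Among the ligands of these receptors, 1 of 3 ephrin-B genes and 1 of 5 ephrin-A genes fell in HBC and none rose. Efnb2, the gene of the transmembrane ephrin-B2 known from arteries, read 244, 264 and 235 in HBC and 458, 497 and 597 in LBC. It fell in HBC by 1.01 ± 0.094 on the log2 scale (SE, limma, adjusted p = 8.4e-10), with 2.09 times the HBC intensity in LBC. Efna5, the gene of a ligand of Epha3 that is held in the membrane by a lipid anchor, read 166, 162 and 156 in HBC and 246, 249.6 and 292 in LBC. It fell by 0.65 ± 0.088 (SE, limma, adjusted p = 1.2e-06), and the call was lost without LBC replicate 3 (-0.58), after cyclic loess (-0.57) and with 50 added (-0.56). The receptor gene Epha3 and this ligand gene were thus called in opposite directions, a statement about the RNA of 2 populations and not about binding.

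The groups did not overlap for any of the 5 ephrin-A genes on the values as deposited, 4 of which had LBC above HBC (25.1% of all genes did) and 1 HBC above LBC (10.1% of all genes). Efna4 read 253, 272 and 261 in HBC and 351, 359 and 388 in LBC (difference -0.46 ± 0.085, SE, limma, adjusted p = 0.00015, not called). Efna1, the ligand of Epha2, read 76.4, 77.8 and 93.3 in HBC and 117, 107 and 119.6 in LBC (difference -0.41 ± 0.089, SE, limma, adjusted p = 0.0011, not called), and in HBC it stood at the upper end of the range of dim signal. By the methods' t-test the adjusted p of Efna1 was 0.088 and that of Efna4 0.023. Efna3 had a difference of -0.13 (adjusted p = 0.30), and Efna2 was on the HBC side at 0.25 (adjusted p = 0.036). Efna1, Efna3 and Efna4 follow each other on chromosome 3, and the 6 tested genes around them (Krtcap2, Dpm3, Slc50a1, Adam15, Dcst1 and Dcst2) had differences between -0.12 and 0.15 with overlapping groups. Of the other ephrin-B genes, Efnb1 had a difference of -0.04 and Efnb3 one of -0.12, neither called.

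**Figure D3:**
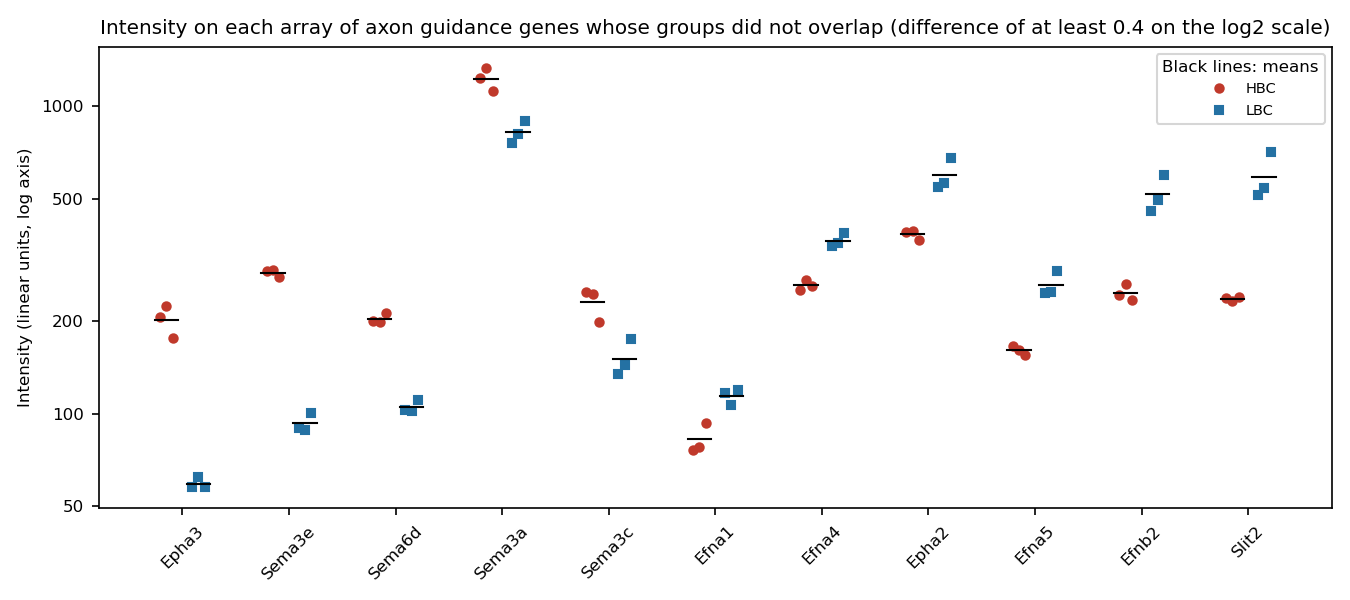
Intensity on each of the 6 arrays (linear intensity drawn on a log axis) of the 11 genes that were called or whose groups did not overlap at a difference of at least 0.4, with HBC as circles, LBC as squares and means as black lines. Epha3, Sema3e, Sema6d, Sema3a and Sema3c lie higher in HBC, the other 6 lie higher in LBC, and LBC replicate 3 is the highest LBC array for all of the latter.

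Slit2 had the largest fall of the 68 genes. This secreted ligand of the Robo receptors read 238, 232 and 239 in HBC and 515, 542 and 710.2 in LBC. The HBC arrays were nearly equal, at 236 ± 3.65 (SD, n = 3), whereas LBC was at 589 ± 106 (SD, n = 3), with replicate 3 above the other LBC arrays. Slit2 fell in HBC by 1.25 ± 0.098 on the log2 scale (SE, limma, adjusted p = 1.8e-11), and LBC had 2.49 times the HBC intensity. The other Slits were not called, with Slit3 at 584 and 550 as group means (difference 0.08, overlapping) and Slit1 at 79.2 and 85.8 (difference -0.10). No Robo was called either, and the groups of all 4 overlapped. Robo1, the receptor of Slit2 in many tissues, read 229, 218 and 229.6 in HBC and 203, 218 and 226 in LBC (difference 0.06, overlapping), Robo2 and Robo3 were within the range of dim signal, and Robo4 had a difference of -0.09.

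LBC replicate 3 touched several of these falls. Over the 5628 genes with a mean intensity above 500, its median deviation from the LBC mean was 0.16 in log2 units, beside -0.11 and -0.05 for LBC replicates 1 and 2 and values from -0.06 to 0.05 on the HBC arrays. The 68 axon guidance genes did not show such a shift as a set. Their mean deviation was 0.0098 on LBC replicate 3, beside -0.0002 and -0.0096 on LBC replicates 1 and 2. Without LBC replicate 3 Slit2 had a difference of -1.11 and Efnb2 one of -0.90, both still called, and Sema3e (1.53), Sema6d (0.89) and Epha3 (1.52) were as large as with it. Without it 5 genes were higher and 2 lower, since Sema3a and Sema3c were then called and Epha2 and Efna5 were not.

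None of the netrin or Unc5 names was called. Ntn1, the gene of netrin-1, read 221 in HBC and 247 in LBC with LBC above HBC on every array (difference -0.15, adjusted p = 0.25), and Ntn3, Ntn4, Ntn5 and Ntng1 had overlapping groups. Among the Unc5 receptors, Unc5c had overlapping groups, at 525, 556 and 483 in HBC and 382, 405 and 492 in LBC (difference 0.29, adjusted p = 0.030, not called). Unc5b, a netrin receptor of vessel cells, had values of 539, 580.4 and 549 in HBC and 588, 606 and 729 in LBC (difference -0.19, adjusted p = 0.15). Unc5a and Unc5d had differences of -0.05 and -0.11. Of the 2 genes that only share the name, Unc50 read 684 and 694 and Unc5cl 210.1 and 234, with overlapping groups. Ntng2 was represented by a cluster shared with 6530402F18Rik, which read 101 and 106 (difference -0.05).

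**Figure D4:**
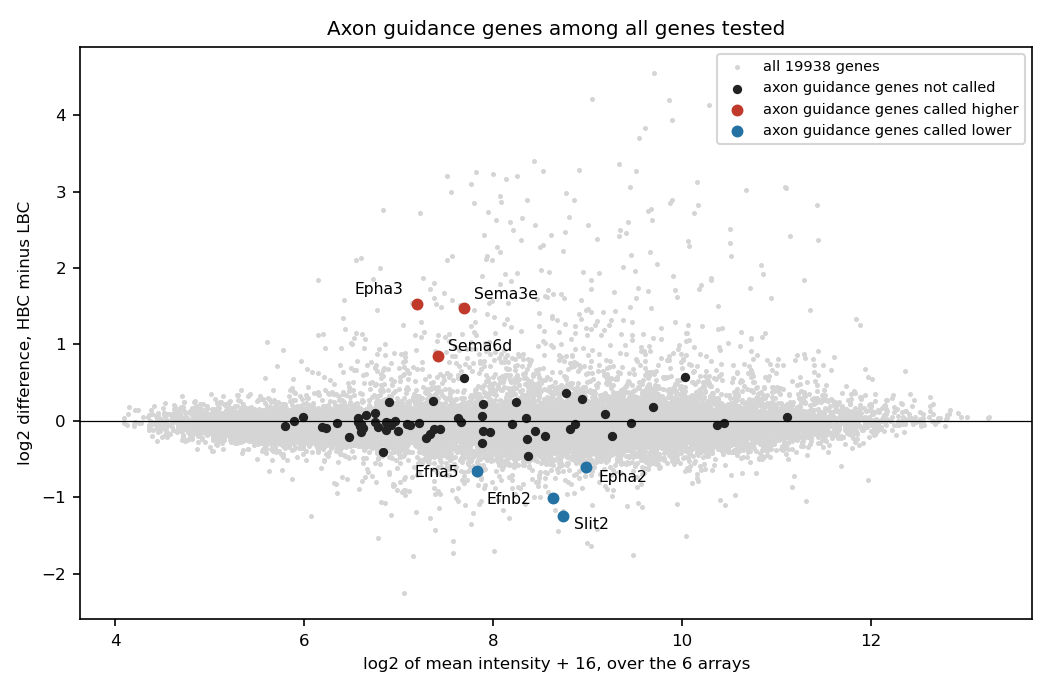
Difference between HBC and LBC (log2 units) against the log2 of the mean intensity + 16 over the 6 arrays, for all 19938 genes in grey and the 68 axon guidance genes in dark or coloured points. The 7 called genes lie at the edge of the grey cloud, with Epha3 and Sema3e near 1.5 and Slit2 at -1.25, and the genes that were not called lie within it.

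Genes that work with these ligands and receptors were read from lists of co-receptors and other cues (27 of 28 measured), semaphorin and plexin effectors (24 of 24), Eph effectors (19 of 20) and Slit and netrin effectors (26 of 29). Of the 94 measured genes 2 rose (2.13%, against 2.54% of all genes), 3 fell (3.19%, against 1.13%) and 89 were not called, with a median difference of -0.05. Srgap3, a GTPase-activating protein that acts downstream of Slit and Robo, read 304, 310.1 and 305 in HBC and 156, 168 and 158 in LBC, and rose by 0.87 (limma, adjusted p = 1.6e-09). Limk1, a kinase that acts on cofilin and thereby on actin filaments, read 695, 665 and 682 in HBC and 414, 432 and 492 in LBC (difference 0.60, adjusted p = 4.7e-06). That call was lost without HBC replicate 1 (0.58), without LBC replicate 1 (0.55), without LBC replicate 2 (0.58) and with 50 added (0.56).

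Among the genes that fell, Met, the receptor of hepatocyte growth factor that can pair with class B plexins, read 292, 298 and 255 in HBC and 677, 731 and 946 in LBC. It fell by 1.42 on the log2 scale (limma, adjusted p = 2.3e-12), and its difference without LBC replicate 3 was -1.28, still called. Rnd1, a small GTPase that binds plexins, read 198, 206 and 172 in HBC and 350, 364 and 382 in LBC (difference -0.88, adjusted p = 4.1e-09). Flrt3, a membrane protein that binds Unc5 receptors and Robo1, read 78.8, 69.3 and 69.7 in HBC and 144, 127 and 157 in LBC (fitted difference -0.84, adjusted p = 1.5e-08). The HBC values lay within the range of dim signal, and the geometric mean of LBC was 1.68 times the upper end of that range, 85.0. Here too this ratio sets no lower limit on the fold between the groups. No Eph effector was called. The netrin receptors Neo1 (1731 and 1643) and Dcc (59.0 and 62.3) had overlapping groups.

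The labelled cell type was checked against marker genes. Of 11 measured preadipocyte or fibroblast markers Col3a1 was called higher (0.80) and Dcn lower (-0.78). Among those not called, Pdgfra read 4096 in HBC and 3166 in LBC (difference 0.37). HBC also lay above LBC on every array for Pdgfrb (0.53), Col1a1 (0.35) and Pi16 (0.37). The reverse held for Cd34 (-0.45) and Thy1 (-0.14). Dpp4, Lum and Pi16 were dim. No leukocyte, endothelial, pericyte or adipocyte marker was called, out of 10, 8, 6 and 6. LBC lay above HBC on every array for the leukocyte marker Cd14 (difference -0.48, limma, adjusted p = 8.9e-05). It also did for the pericyte marker Rgs5 (-0.49, adjusted p = 6.3e-05), which was dim in HBC. At smaller differences the same held for Cdh5, Itgam, Lyz2, Ptprc and Myh11. In the leukocyte, endothelial and pericyte lists no marker had HBC above LBC on every array. The summed intensity of the leukocyte markers was 863 to 890.2 in HBC and 970.1 to 1031 in LBC, with 5 of 10 dim in both groups, and that of the endothelial markers was 597 to 675 and 606 to 713, with 7 of 8 dim. The adipocyte markers summed to 2755 to 2914 in HBC and 2063 to 2442 in LBC, with 3 of 6 dim. Most of that sum was Fabp4, at 2363 in HBC and 1774 in LBC as group means. HBC lay above LBC on every array for Retn (difference 0.58, limma, adjusted p = 7.9e-06) and Fabp4 (0.42, adjusted p = 0.0013), neither called. Adipoq, Cidec, Lep and Plin1 had overlapping groups, with differences from -0.13 to 0.06. The pericyte or smooth muscle markers summed to 654 to 754 and 677 to 816. Of 7 measured Schwann or neuronal markers Snap25, a gene of vesicle release, was called lower (-0.81), at 169 in HBC and 307 in LBC as group means. The 7 markers, Snap25 included, summed to 999.8 to 1078 in HBC and 1211 to 1283 in LBC. LBC also lay above HBC on every array for Mbp, Sox10 and Syt1, none called, whereas Rbfox3, S100b and Stmn2 had overlapping groups. The part of these differences in the results above was not tested. Fewer cells of a kind and less RNA per cell cannot be told apart in such bulk RNA.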

How the data were processed

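RNA of HBC and LBC was hybridised to 3 Affymetrix arrays each. The authors deposited linear intensities, and the submitters' processing notes name Affymetrix Expression Console. How probes were summarised, how arrays were scaled and which version was run is not given in the sources used here. A later array version is named in the methods than the one whose annotation the row identifiers match. Array medians ran from 122 to 135, correlations from 0.996 to 0.999 within and from 0.980 to 0.986 between groups, and the number of arrays limits the precision.

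Of 35556 clusters, 21789 had 1 symbol, 1621 several and 12146 none. All 68 genes matched RefSeq, and 6 had 2 clusters (Epha10, Ephb1, Ntng1, Sema4d, Sema6b and Unc5d), none of the second ones called. A value of 16 was added before log2, and all genes were fitted with limma 3.58.1 in R 4.3.3, with Benjamini-Hochberg adjustment over 19938 genes, of which 507 were called higher and 225 lower. The prior had 24.9 degrees of freedom beside 4 residual ones, so the exponent of a very small p-value carries little information. The scripts were tested on simulated data.

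Named genes were all called genes, those whose groups did not overlap at a difference of at least 0.4, and the brightest of each family. The families, lists and rules were chosen with earlier results of these data known. Alternatives were other scalings, filters, tests, priors, added values, cluster choices, a replicate block, other thresholds and each array left out.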

Additional observations from a re-analysis of the deposited data

How the results depend on the processing

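Sema3e, Epha3, Efnb2 and Slit2 kept their call under every alternative in which they were tested, arrays left out included, and so did Sema6d except at a fold above 2. Sema3e and Epha3 have no value under the filter on a mean above 100 in both groups, since their LBC means lie below it, and the axon guidance split was then 1 higher and 4 lower. Over the 11 axon guidance genes named for a call or a separation, the alternatives at the 1.5-fold limit, arrays left out included, gave 217 outcomes, of which 197 were on the same side of the call, 10 lost it, 10 gained it and 0 changed sign. Sema3a was called after cyclic loess (0.63) and median centring (0.61), and Sema3c also after quantile normalization (0.62) and with an added 1 (0.61). With no fold threshold 3655 genes, 17 axon guidance genes (Sema3a, Sema3c, Efna1 and Efna4 among them) and 22 pathway genes passed. At a fold above 2 these counts were 280, 4 and 1, with Sema6d, Efna5 and Epha2 lost. Leaving out each array in turn gave 710 to 784 genes, 7 to 8 axon guidance genes and 5 to 6 pathway genes. Over all genes the share of calls that were higher was 69.3% as deposited and 78.2% after cyclic loess (592 higher and 165 lower). With the replicate block the counts were 732, 7 and 5 as without it, and the block changed no call. Deviations of arrays with the same replicate number correlated at -0.096, -0.24 and -0.50. Those of HBC replicate 3 and LBC replicate 1 correlated at 0.49, and those of HBC replicate 2 and LBC replicate 3 at 0.45. Each deviation was taken from the mean of 3 arrays, so these correlations cannot decide whether the numbers pair the arrays. The methods' t-test called 655 genes and 6 axon guidance genes. The arrays come from 1 population per group, and no scanner files, background levels or detection calls were used, so the signal of dim genes such as Epha3 in LBC has no measured lower limit here.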
